A study of Mus musculus with 6 samples.

Results

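The immediate early genes described here are 10 transcription regulators chosen by name: Egr1, Egr2, Egr3, Fos, Fosb, Jun, Junb, Myc, Maff and Btg2. All 10 were measured, among 18193 genes, on 6 arrays of ventricular tissue. Of these arrays 3 came from caAkt mice, which carry a transgene for a constitutively activated Akt expressed only in the heart, and 3 from wild-type mice. All mice were 8 weeks old, no treatment was given, and the comparison was made to describe the expression changes that accompany heart failure in this model. The promoter of the transgene, the sex and strain of the mice, the hour of collection and any batch are not given in the labels. Whether every array stands for a heart of its own is not stated either, so the p-values describe variation among these arrays, part of which may be technical, and each signal listed below for caAkt or wild-type hearts is that of 1 array.

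Immediate early genes are switched on within minutes of a stimulus, without new protein synthesis, and their messages are short-lived. Serum response factor, which binds CArG boxes, and CREB, which binds cAMP response elements, are their best known inducers. Many of the products are transcription factors that pass the signal on to later genes. In cardiac muscle they are known to respond to stretch, pressure overload and adrenergic agonists.

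The values are log2 signals per probe set, and a gene's value is that of its brightest probe set, judged by the mean of all 6 arrays. Levels of different genes are not compared, since probe sets differ in how strongly they bind. Array medians were 6.77 to 6.80. The brightest Akt1 probe set stood at 15.16, 15.10 and 15.08 in caAkt hearts, against 9.79, 9.79 and 10.18 in wild-type hearts, and the groups did not overlap. Of 3 other Akt1 probe sets, 1 was called lower (-0.29, limma over all probe sets, adjusted p = 0.0281) and 2 were not called (0.08 and -0.21). Array means of the cardiomyocyte markers were 14.45 to 14.53 in caAkt hearts and 14.61 to 14.74 in wild-type hearts. The tissue is bulk ventricle, in which fewer cells of a type and less RNA per cell cannot be told apart.

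Of the 10 immediate early genes, 3 were higher in caAkt hearts (Egr2, Myc and Maff) and 1 was lower (Btg2), in limma with a Benjamini-Hochberg adjusted p under 0.05. The other 6, among them Fos, Jun and Junb, were not called. This share of 40% stands beside 28.5% of all genes called, 16.1% higher and 12.4% lower (2929 and 2254 genes, against 2557 and 3191 with each array centred on its median). Without single arrays 3 to 4 were higher and 1 to 2 lower: Junb was added without wild-type replicate 3, and Egr1 without wild-type replicate 2. The median log2 fold change, caAkt minus wild-type, was 0.26 over the 10 genes (0.13 to 0.33 without single arrays), against -0.036 over all genes. In 4 of the 10 the caAkt values lay entirely above or below the wild-type values, as they did in 42.4% of all genes. The 10 genes were chosen with earlier results of these data known, so these shares are a description and not a test.

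**Figure D1:**
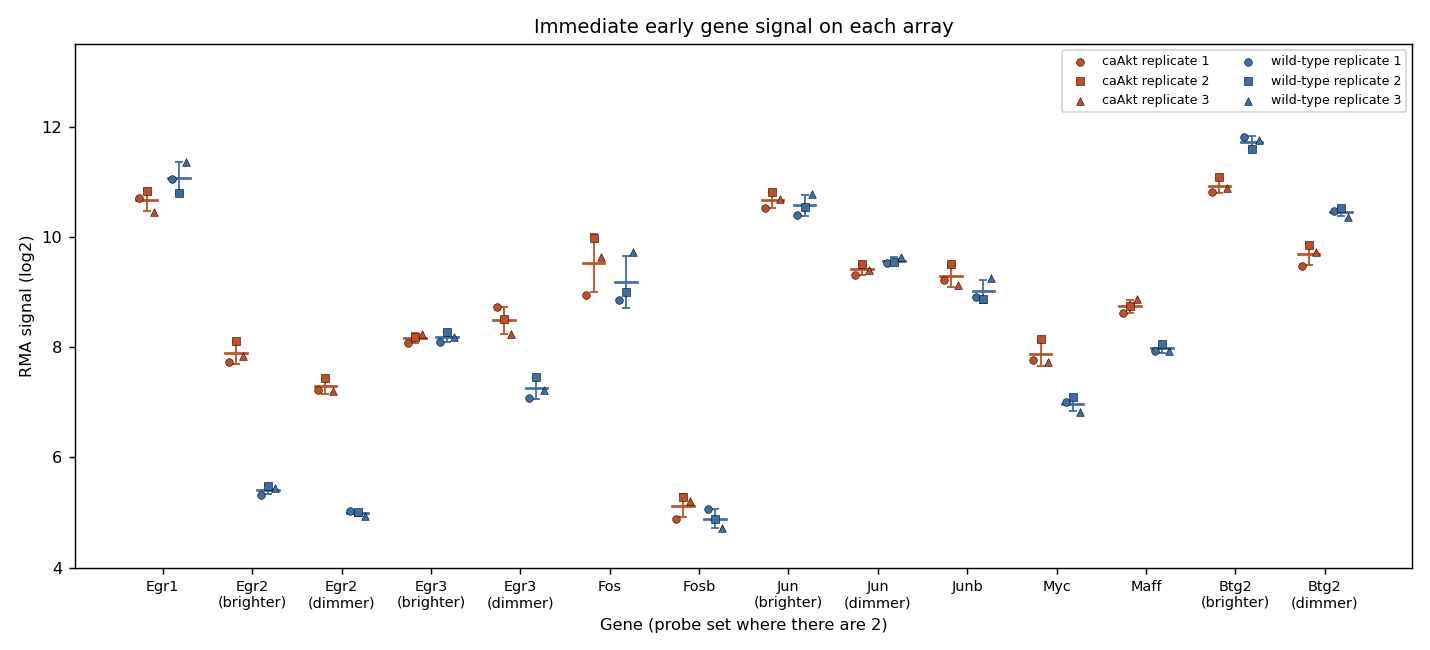
RMA signal (log2) of the 14 probe sets of the 10 immediate early genes on each array, with caAkt (orange) left of wild-type (blue). Symbols are replicates, and lines and bars are mean and SD (n = 3). Egr2, Myc, Maff and Btg2 separate by genotype, whereas Fos spreads widely within each genotype and overlaps.

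The EGR genes encode zinc-finger transcription factors that bind GC-rich sites. Egr2, also called Krox20 and known for driving myelination by Schwann cells, was the immediate early gene with the largest change. Its signal was 7.73, 8.12 and 7.84 in caAkt hearts, against 5.32, 5.48 and 5.44 in wild-type hearts. Every caAkt value lay more than 2 log2 units above every wild-type value. The log2 fold change was 2.48 ± 0.10 (SE, limma, adjusted p = 8.23e-07), or 5.59-fold, and 2.37 to 2.57 without single arrays. A second, dimmer Egr2 probe set gave 7.22, 7.44 and 7.20 in caAkt hearts, against 5.03, 5.002 and 4.93 in wild-type hearts, a log2 fold change of 2.30 ± 0.09 (limma over all probe sets, adjusted p = 1.62e-06). Egr2 was the only one of the 10 called at 2-fold or more in either direction at the gene level; 2.48% of all genes were called at least 2-fold higher. Its wild-type mean of 5.41 ± 0.08 (SD, n = 3) lies under the 25th percentile of all gene means (5.99), where a fold change may be understated.

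Egr3, a close relative of Egr2 known for its part in forming muscle spindles, gave different answers at its 2 probe sets. At the brighter one the signal was 8.08, 8.19 and 8.24 in caAkt hearts, against 8.10, 8.28 and 8.19 in wild-type hearts. These ranges overlap almost fully, with a log2 fold change of -0.02 ± 0.08 (limma, adjusted p = 0.868, 95% interval -0.20 to 0.15). At the dimmer one it was 8.72, 8.51 and 8.23 in caAkt hearts, against 7.08, 7.46 and 7.23 in wild-type hearts. There every caAkt value was above every wild-type value, with a log2 fold change of 1.23 ± 0.14 (limma over all probe sets, adjusted p = 0.00033) or 2.35-fold. The brighter minus the dimmer signal averaged -0.32 ± 0.33 in caAkt hearts and 0.93 ± 0.10 in wild-type hearts (SD, n = 3). Its exact permutation p was 0.1, the smallest this design allows. The probe set pairs of Egr2 and Jun gave the same p, and that of Btg2 0.8, so the p does not set Egr3 apart. The shift of this difference, caAkt minus wild-type, was -1.25 for Egr3, 0.18 for Egr2, 0.26 for Jun and -0.02 for Btg2. The stretch of Egr3 RNA that each one detects was not examined, and no direction is given for the gene. The mean of its probe sets was called higher (log2 fold change 0.61, adjusted p = 0.000711).

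Egr1, the best studied member of the family and a factor induced by growth factors and mechanical load, leaned the other way. Its signal was 10.71, 10.83 and 10.46 in caAkt hearts, against 11.05, 10.79 and 11.36 in wild-type hearts. The groups overlap because wild-type replicate 2 lies below caAkt replicate 2. The log2 fold change was -0.40 ± 0.15 (limma, adjusted p = 0.0708), and its 95% interval, which is not adjusted for the number of genes, runs from -0.73 to -0.07. Leaving out wild-type replicate 2 made it a called fall (-0.54, adjusted p = 0.0247), and with any other array omitted Egr1 was not called (adjusted p 0.0765 to 0.219), the difference shrinking to -0.25 without wild-type replicate 3.

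Fos, Fosb, Jun and Junb encode subunits of AP-1, a leucine-zipper dimer of a Fos and a Jun protein or of Jun proteins. None of the 4 was called. Fos had 8.95, 9.99 and 9.63 in caAkt hearts, against 8.85, 8.99 and 9.72 in wild-type hearts. These values span 1.03 log2 units among caAkt arrays and 0.87 among wild-type arrays, so arrays of the same genotype differ more than the genotype means. The log2 fold change of Fos was 0.34 ± 0.28 (limma, adjusted p = 0.402, 95% interval -0.29 to 0.96), and it ranged from 0.11 without caAkt replicate 2 to 0.62 without caAkt replicate 1. The interval therefore includes a rise of up to 1.95-fold, and the arrays do not show whether Fos differs.

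Junb, a Jun protein that can restrain Jun-driven proliferation, had 9.22, 9.50 and 9.13 in caAkt hearts, against 8.91, 8.88 and 9.26 in wild-type hearts. Wild-type replicate 3 lies within the caAkt range and the other wild-type values lie below it. Junb differed by 0.27 ± 0.13 on the log2 scale (limma, adjusted p = 0.142, 95% interval -0.01 to 0.56), and 0.39 without wild-type replicate 3, where it was called (adjusted p = 0.0366), but 0.16 without caAkt replicate 2 (adjusted p = 0.397). Jun, the AP-1 subunit that the JNK kinases activate, had 10.52, 10.82 and 10.68 at its brighter probe set in caAkt hearts, against 10.40, 10.55 and 10.77 in wild-type hearts. There Jun differed by 0.10 ± 0.11 on the log2 scale (limma, adjusted p = 0.528, 95% interval -0.15 to 0.35), from 0.01 without wild-type replicate 1 to 0.20 without wild-type replicate 3. Its dimmer probe set gave 9.32, 9.52 and 9.41 in caAkt hearts, against 9.53, 9.55 and 9.64 in wild-type hearts, a difference of -0.16 ± 0.08 (limma over all probe sets, adjusted p = 0.207). The probe sets of Jun thus point in opposite directions and neither was called.

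Fosb, which also gives rise to the stable ΔFosB protein of chronically stimulated neurons, had 4.89, 5.28 and 5.21 in caAkt hearts, against 5.06, 4.89 and 4.71 in wild-type hearts. Both genotype means lie under the same 25th percentile of 5.99. Fosb differed by 0.24 ± 0.12 on the log2 scale (limma, adjusted p = 0.178, 95% interval -0.04 to 0.51), and 0.36 without caAkt replicate 1 (adjusted p = 0.0538) but 0.15 without wild-type replicate 3 (adjusted p = 0.415).

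**Figure D2:**
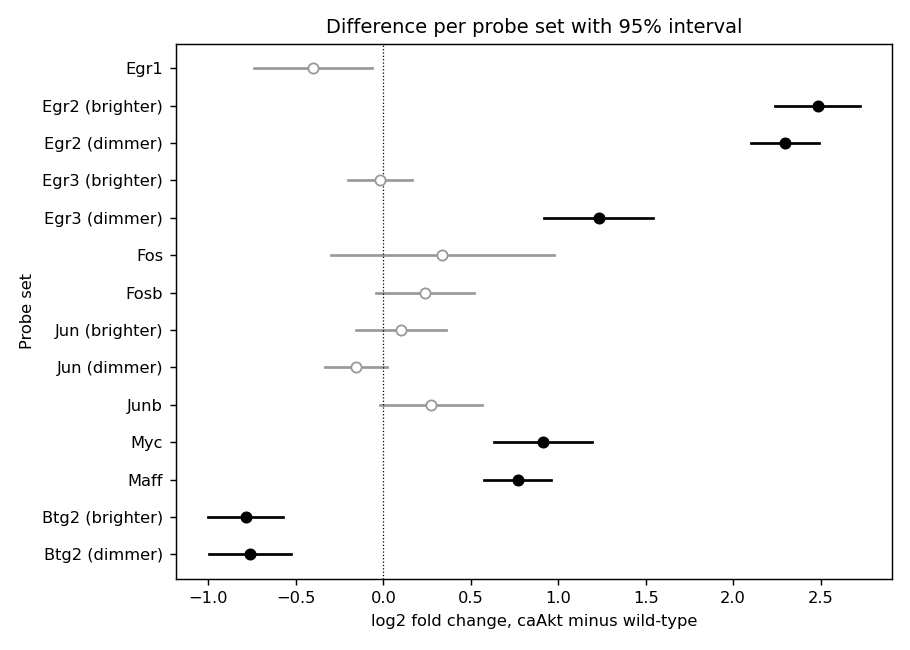
Log2 fold change, caAkt minus wild-type, for each of the 14 probe sets with its 95% interval (limma over all probe sets, n = 3 arrays per group; intervals not adjusted for the number of probe sets). Filled points were called at an adjusted p under 0.05 and open points were not. The interval of Fos, -0.30 to 0.98, is the widest, and the probe sets of Egr3 do not overlap.

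Myc, which pairs with Max to drive growth and ribosome production, was higher in caAkt hearts. Its signal was 7.77, 8.15 and 7.73 in caAkt hearts, against 7.01, 7.09 and 6.82 in wild-type hearts. The groups are separate, with a log2 fold change of 0.91 ± 0.12 (SE, limma, adjusted p = 0.000493) or 1.88-fold. Maff encodes a small MAF protein, which has a DNA-binding leucine zipper but no activation domain of its own. It had 8.62, 8.74 and 8.87 in caAkt hearts, against 7.93, 8.06 and 7.93 in wild-type hearts. The log2 fold change was 0.77 ± 0.08 (limma, adjusted p = 0.000149) or 1.70-fold, again with separate groups. Across all alternatives that gave a value the log2 fold change of Myc was 0.78 to 0.99 and that of Maff 0.71 to 0.83, and both stayed called.

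Btg2, a p53-inducible brake on the cell cycle that recruits the deadenylation machinery to messages, was the only immediate early gene that fell. Its signal was 10.81, 11.09 and 10.89 in caAkt hearts, against 11.80, 11.60 and 11.75 in wild-type hearts. Its dimmer probe set had 9.48, 9.86 and 9.73 in caAkt hearts, against 10.47, 10.52 and 10.37 in wild-type hearts. The groups are separate at both, with log2 fold changes of -0.79 ± 0.09 (limma, adjusted p = 0.000247) and -0.76 ± 0.10 (limma over all probe sets, adjusted p = 0.000975). In all, 7 of the 14 probe sets of the 10 genes were called in the fit of all probe sets, where 20% of probe sets were called.

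Start-site sequences of 3 of the called genes, Egr2, Maff and Btg2, are shown with that of Fos (Myc had no matched window), so that the elements through which such genes are known to be induced can be read. RefSeq windows of assembly GRCm38.p6, matched by symbol, were used for 7 of the 10 genes. These were 13 windows, each with 250 bases before and 50 after a transcription start. No window of Egr1 or Egr3 was used either, which does not mean that RefSeq holds none for them. Each line runs 5′ to 3′ from 200 bases before the start to 20 bases from it on, and capitals mark motif matches.
Egr2: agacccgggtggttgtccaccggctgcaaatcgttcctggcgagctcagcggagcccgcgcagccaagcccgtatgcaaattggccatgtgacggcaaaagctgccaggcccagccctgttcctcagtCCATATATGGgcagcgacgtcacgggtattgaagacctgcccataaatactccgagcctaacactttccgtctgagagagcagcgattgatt
Maff: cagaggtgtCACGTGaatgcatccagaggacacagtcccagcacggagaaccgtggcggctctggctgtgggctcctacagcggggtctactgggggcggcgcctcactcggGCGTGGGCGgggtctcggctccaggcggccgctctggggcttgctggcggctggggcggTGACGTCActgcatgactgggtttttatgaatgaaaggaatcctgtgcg
Btg2: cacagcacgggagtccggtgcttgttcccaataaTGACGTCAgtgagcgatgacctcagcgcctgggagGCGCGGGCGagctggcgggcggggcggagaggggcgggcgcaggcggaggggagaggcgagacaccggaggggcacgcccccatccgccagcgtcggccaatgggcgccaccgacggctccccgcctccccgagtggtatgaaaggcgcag
Fos: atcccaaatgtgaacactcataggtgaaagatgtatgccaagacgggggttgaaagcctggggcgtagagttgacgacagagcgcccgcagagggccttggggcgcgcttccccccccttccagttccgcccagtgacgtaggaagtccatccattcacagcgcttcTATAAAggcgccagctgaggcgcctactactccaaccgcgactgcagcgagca
The Egr2 stretch is chr10:67537669-67537888, plus strand, the Maff stretch chr15:79347320-79347539, plus strand, the Btg2 stretch chr1:134079136-134079355, minus strand, and the Fos stretch chr12:85473690-85473909, plus strand. Where a gene had several windows, the one with the most motifs is shown, and for Egr2, where 4 of 5 windows hold a CArG box, the first of the 3 that share the letters CCATATATGG. Those 3 windows overlap and hold the same CArG box at the same place in the genome. The other Egr2 window with a CArG box has the letters CCTTTTTTGG.

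The motifs searched on both strands were the CArG box, the cAMP response element TGACGTCA, the EGR site GCGNGGGCG, the AP-1 site TGANTCA, the E-box CACGTG and the TATA box TATAAA. In the sequences above, Egr2 has a CArG box beginning 72 bases before the start. Maff has an E-box beginning 191 bases, an EGR site 88 bases and a cAMP response element 29 bases before it. The other windows of Maff hold none of these motifs. Btg2, the gene that fell, has a cAMP response element beginning 166 bases and an EGR site 131 bases before its start. Fos has a TATA box beginning 33 bases before its start and no other of these letters in its window. The windows reach only 250 bases before a start, and only the stated letters were matched. Elements farther upstream or with other letters were not searched, so their absence at Fos or the other genes is not shown. None of the marked matches overlap one another. Of 32851 windows over all genes, 1.63% hold the CArG box, 1.79% the cAMP response element, 5.55% the EGR site, 7.81% the AP-1 site, 7.15% the E-box and 13.6% the TATA box. These shares are per window, whereas the Maff window shown was picked for having the most motifs. In the windows shown, Maff, which rose, and Btg2, which fell, share motifs. A match of letters is neither a bound site nor a cause of the change.

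The spread between arrays of one genotype was itself large for some of these genes. The within-genotype SD of Fos was 0.50 log2 units, and 0.154% of all genes had a larger one. For Egr1 it was 0.24 (3.17% of genes larger), for Junb 0.20 (6.74%) and for Jun 0.17 (13.4%), whereas for Egr3 at its brighter probe set it was 0.09 (62.5%). Among caAkt arrays, replicate 2 had the highest value for 8 of the 10 genes and replicate 1 for 0, while for all genes these shares were 34.4% and 35.4%. Replicate 1 of caAkt had the lowest value for 7 of the 10. Among wild-type arrays, replicate 3 was highest for Fos, Jun, Junb and Egr1, by 0.20 to 0.53 log2 units over the genotype mean. Wild-type replicate 2 was highest for 4 as well (Egr2, Egr3, Myc and Maff), and wild-type replicate 3 was lowest for 2. For all genes, wild-type replicate 3 was highest in 28.1% and wild-type replicate 2 in 32.9%. The actin control (3′ minus 5′ signal) ranged from 0.53 to 0.69 in caAkt hearts and from 0.60 to 0.71 in wild-type hearts. Hour of collection and handling time were not given, and their part in this spread was not tested.

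**Figure D3:**
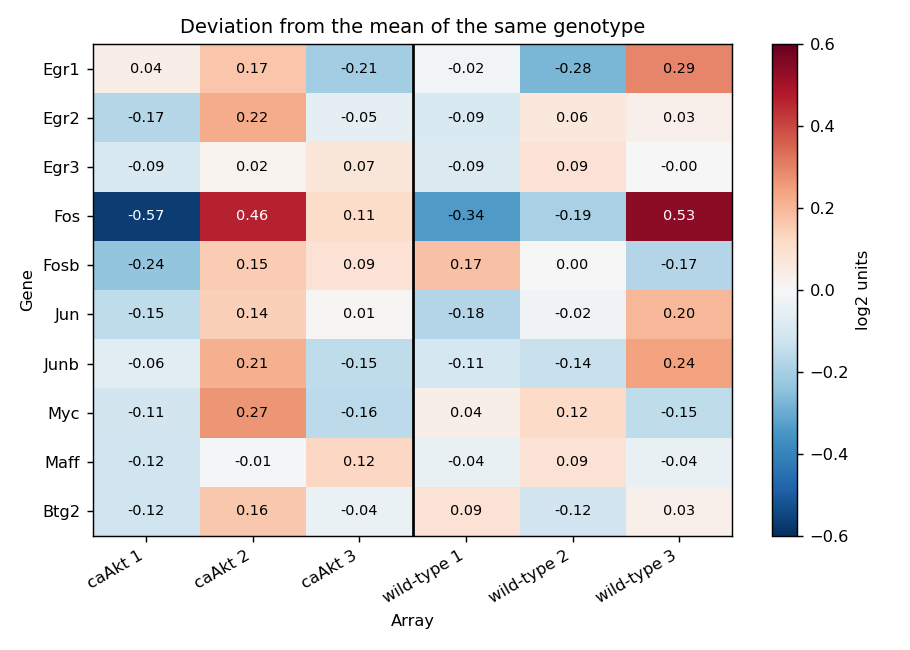
Deviation of each array from the mean of its own genotype (log2 units) for the 10 immediate early genes, caAkt arrays left and wild-type arrays right of the line. Fos ranges from -0.57 in caAkt replicate 1 to 0.53 in wild-type replicate 3, and caAkt replicate 2 is above its genotype mean for 9 genes.

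Deviations from the genotype mean were used to find the genes most like Fos and Egr1, among 9089 genes above the median level. For Fos these were Pacs1 (Pearson r = 0.998 and Spearman rho = 1 over 6 arrays), Ltbp1 (r = 0.997), a TGF-β binding protein of the matrix, and Anks1 (r = 0.996). For Egr1 they were Farsa (r = 0.999), a subunit of the phenylalanyl-tRNA synthetase, Rnaseh2a (r = 0.995), a subunit of ribonuclease H2, and Cbx6 (r = 0.993), a Polycomb protein. The deviations of these genes are smaller than those of Fos and Egr1, at most 0.18 log2 units. With 6 arrays and so many genes searched, the best matches are necessarily close, and they are given as a description with no test. Within the 10 genes, Fos went most closely with Jun (r = 0.96) and Egr1 with Junb (r = 0.90).

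The list of family relatives of the 10 genes also held the EGR corepressors Nab1 and Nab2 and the factor Nfe2l2. Of its 20 genes 18 were measured. Of these 7 rose and 1 fell, with a median log2 fold change of 0.26 (6 to 7 rose and 0 to 2 fell without single arrays). This is 38.9% higher and 5.56% lower, against 16.1% and 12.4% of all genes, in a list chosen with earlier results of these data known. The other small MAF genes rose with Maff: Mafk by 1.20 ± 0.08 (SE, limma, adjusted p = 1.29e-05) and Mafg, chosen after its value was seen, by 0.52 ± 0.10. Mafk had 11.30, 11.02 and 11.09 in caAkt hearts, against 9.92, 9.97 and 9.91 in wild-type hearts, so its groups are separate. Nab1, a corepressor that binds EGR proteins, rose by 0.57 ± 0.07 (2 of its 3 probe sets were called and 1 gave -0.08), and Fosl2, the Fra-2 partner of Jun proteins, by 0.82 ± 0.12, though a dimmer Fosl2 probe set gave 0.03. Atf4, an effector of the integrated stress response, rose by 0.48 ± 0.07 (2 of 3 probe sets called, 1 at -0.02). Tob2, of the same antiproliferative family as Btg2, was the relative that fell (-0.49 ± 0.14, limma, adjusted p = 0.0289); this gene was picked with its value in view and lost its call with any of 4 arrays omitted, where adjusted p reached 0.109. The uncalled relatives include Egr4 (-0.01), Fosl1 (0.06) and Jund (0.17).

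In the network around Myc, 1 of 12 measured genes rose and 4 fell, with a median of -0.06. This is 8.33% higher and 33.3% lower, against 16.1% and 12.4% of all genes. Mycn, the paralogue that dominates in embryonic heart, fell by 0.97 ± 0.13 (SE, limma, adjusted p = 0.000521) at its brightest probe set, against -0.21 at the least changed of its 3. It had 8.10, 7.78 and 7.89 in caAkt hearts, against 9.14, 8.90 and 8.64 in wild-type hearts, the opposite of Myc. Mlxipl, the carbohydrate-responsive factor ChREBP, fell by 1.58 ± 0.13, and the Myc antagonist Mnt by 0.29 ± 0.07 (-0.02 at its dimmer probe set; adjusted p = 0.0547 and not called without wild-type replicate 2). Mxi1, chosen after its value was seen, fell by 0.27 and was called in 3 of the 6 fits that leave out an array. Mxd4, another antagonist that competes for Max, rose by 0.67 ± 0.08. Max itself, the partner of Myc, differed by 0.37 without being called (adjusted p = 0.109). Omitting wild-type replicate 3 made Max a called rise (0.56, adjusted p = 0.00736), so that 2 genes of the network rose.

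Signalling genes upstream showed mixed, mostly small differences, beside 16.1% of all genes called higher and 12.4% lower. The list of serum response factor and its partners also held the CREB pathway genes Creb1, Crem and Crtc2. Of its 11 measured genes, 3 rose and 0 fell by limma (3 and 0 at an unadjusted p under 0.05). When an array was left out, 2 to 3 rose. The median was 0.07 (-0.01 to 0.13 when an array was left out). Srf rose by 0.39 ± 0.07 (SE, limma, adjusted p = 0.00231) and the cAMP-responsive modulator Crem by 0.86 ± 0.10, though the least of the 4 Crem probe sets gave -0.15. The Srf coactivator Mrtfa rose by 0.27 and lost its call with any of 4 arrays omitted, where adjusted p reached 0.153. In the ERK cascade, 7 of 14 listed genes were measured, of which 2 rose and 1 fell (1 rose without caAkt replicate 1 or 2 or wild-type replicate 2 or 3), and the median was 0.07 (-0.07 to 0.13 when an array was left out). Map2k1, the ERK-activating kinase MEK1, rose by 0.51 ± 0.07, and Rps6ka5, the kinase MSK1, which phosphorylates CREB and histone H3, fell by 0.69 ± 0.11 (2 of 3 probe sets called, 1 at -0.01). Rps6ka3 rose by 0.28 and was called in 2 of the 6 fits that leave out an array. In the JNK and p38 cascade 1 of 9 rose and 3 fell, with a median of -0.11 (-0.13 to -0.05 when an array was left out). The p38 activator Map2k6 fell by 0.67 ± 0.09, the p38 kinase Mapk14 by 0.41 ± 0.08 (the only 1 of its 6 probe sets that was called, the others reaching 0.002) and Map3k5 by 0.36 ± 0.08, whereas Map2k3 rose by 0.26 and lost its call with any of 4 arrays omitted.

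**Figure D4:**
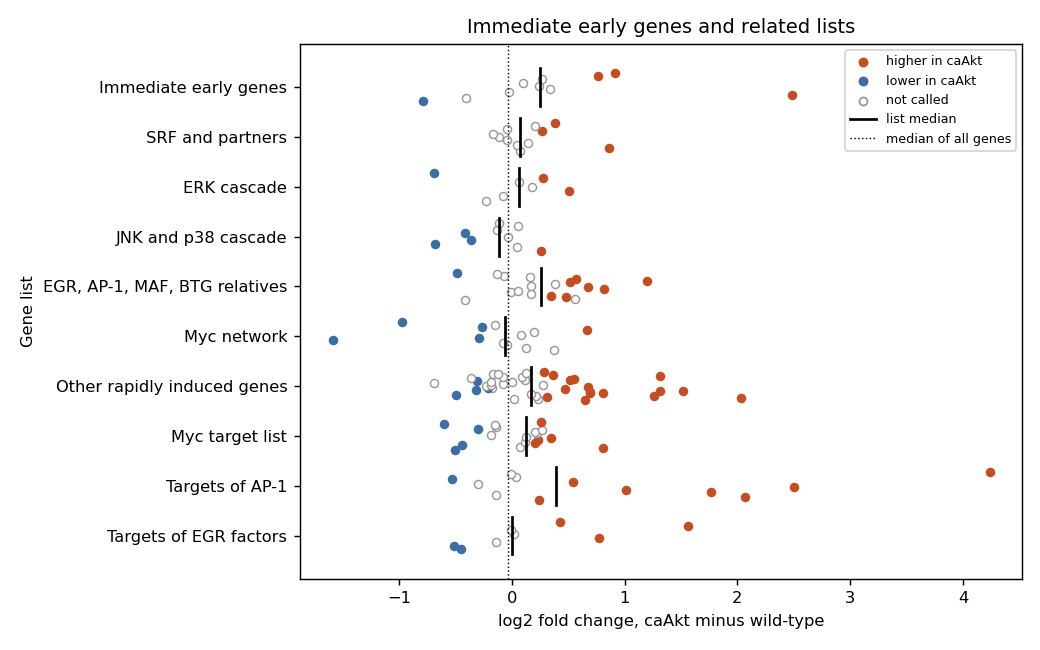
Log2 fold change, caAkt minus wild-type, of each measured gene in the 10 immediate early genes and 9 related lists. Orange points rose, blue points fell, open points were not called (limma, adjusted p under 0.05), black lines are list medians and the dotted line is the median of all genes (-0.036). The AP-1 target list reaches 4.24 with Timp1, while the immediate early genes span -0.79 to 2.48.

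Other genes known to be rapidly induced were divided as well. Of 39 measured, 16 rose and 4 fell, with a median of 0.17 (14 to 19 rose and 1 to 3 fell without single arrays; 1 fell without wild-type replicate 1). This is 41% higher and 10.3% lower, against 16.1% and 12.4% of all genes. The list was chosen with earlier results of these data known, so these shares are a description and not a test. Ccn2, the matricellular connective tissue growth factor, rose by 2.03 ± 0.17 (SE, limma, adjusted p = 3.63e-05), Gadd45g, a stress sensor, by 1.52 ± 0.10, Hbegf, a ligand of the EGF receptor, by 1.31 ± 0.07, and the ERK phosphatase Dusp6 by 0.81 ± 0.07. The genes that fell, chosen after their values were seen, were Dusp1 (-0.49), Ier2 (-0.32), Pim1 (-0.31) and Irf1 (-0.21). Each of these lost its call without 1 or more of the 6 arrays: Ier2 without caAkt replicate 1, Dusp1 without wild-type replicate 1 or 3, Pim1 in 4 of the 6 fits and Irf1 in 5. Nr4a1, an orphan receptor induced together with Fos in many cells, had 10.04, 11.33 and 11.27 in caAkt hearts, against 11.30, 11.79 and 11.62 in wild-type hearts (-0.69 ± 0.30, limma, adjusted p = 0.122, and -0.27 without caAkt replicate 1); it was chosen after its value was seen. The lowest of these signals is again caAkt replicate 1.

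Among genes known as targets, the lists went different ways. Shares higher and lower were 58.3% and 8.33% for AP-1 targets, 27.8% and 22.2% for the Myc target list and 37.5% and 25% for EGR targets. Over all genes they were 16.1% and 12.4%. These lists were chosen with earlier results of these data known, so the shares are a description and not a test. Of 12 AP-1 targets, 7 rose and 1 fell, with a median of 0.39 (5 to 6 rose and 1 to 2 fell without single arrays). Timp1, which inhibits matrix metalloproteinases, was higher by 4.24 ± 0.15 (SE, limma, adjusted p = 5.26e-07), the cytokine Il6 by 2.50 ± 0.12, the hyaluronan receptor Cd44 by 2.07 ± 0.08 (3 of 4 probe sets called, 1 at -0.06) and fibronectin (Fn1) by 1.77 ± 0.09. The wild-type mean of Il6, 3.98, lies under the 25th percentile of all gene means (5.99), so the size of its change is uncertain. Mmp9, chosen after its value was seen, fell by 0.53 ± 0.12. Of 18 genes of ribosome and nucleotide synthesis and growth that Myc binds, 5 rose and 4 fell, with a median of 0.13. Only 2 to 4 rose without single arrays (2 without caAkt replicate 1, wild-type replicate 2 or wild-type replicate 3), and 3 to 5 fell. Cyclin D2 (Ccnd2) rose by 0.81 ± 0.11 at the brightest of its 7 probe sets, all of which were called, while the ribosome assembly factor Rrs1 fell by 0.60 ± 0.08, the pyrimidine synthesis enzyme Cad by 0.50 ± 0.09 and the cap-binding factor Eif4e by 0.44 ± 0.10 (3 of 4 probe sets called, 1 at 0.04). Of 8 EGR targets, 3 rose and 2 fell, with a median of 0.01 and 1 to 2 falling without single arrays. The sphingosine kinase Sphk1 rose by 1.56 ± 0.20 (its dimmer probe set gave -0.01), the adhesion molecule Icam1 by 0.78 ± 0.08 and Tgfb1 by 0.42 ± 0.07 (its dimmer probe set gave -0.27), whereas tissue factor (F3) fell by 0.51 ± 0.10.

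Marker lists of cell types differed in direction, beside 16.1% of all genes called higher and 12.4% lower. All 8 measured macrophage markers rose (limma, also with any single array omitted), with a median log2 fold change of 1.38 and array means of 10.34 to 10.73 in caAkt hearts, against 9.08 to 9.25 in wild-type hearts. Of 8 fibroblast markers 6 rose and 0 fell by limma (6 and 0 at an unadjusted p under 0.05; 5 to 6 rose when an array was left out), with a median of 0.82 and array means of 12.47 to 12.64 in caAkt hearts, against 11.39 to 11.67 in wild-type hearts. Of 9 cardiomyocyte markers 0 rose and 4 fell by limma (1 and 5 at an unadjusted p under 0.05), with a median of -0.20. Of 7 endothelial markers 0 rose and 3 fell (0 and 5 unadjusted; 2 to 3 fell when an array was left out), with a median of -0.24. Smooth muscle markers had a median of 0.03 over 5 genes (-0.10 to 0.33 when an array was left out), with 1 higher and 1 lower, but 0 to 3 higher and 0 to 1 lower when an array was left out (3 higher without caAkt replicate 1). Neutrophil markers (4 genes, median -0.33, but -0.49 to 0.04 when an array was left out) and T and B cell markers (7 genes, median -0.11, and -0.12 to -0.02 likewise) had 0 called by limma, and 1 of each list passed an unadjusted p under 0.05; without caAkt replicate 3, 1 neutrophil marker was called lower and 1 T or B cell marker higher. Of 3 red cell markers 0 rose and 2 fell by limma (also 0 and 2 unadjusted; 1 to 2 fell when an array was left out), and their median was -0.99. Schwann cell markers, added after the Egr2 values were seen, had array means of 7.76 to 7.89 in caAkt hearts and 7.73 to 7.85 in wild-type hearts. Of their 4 measured genes 1 rose, Cnp (0.57), which was named with its value in view, and the median was -0.08. The part of these cell types in the changes of Egr2, Myc, Maff and Btg2 was not tested.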

How the data were processed

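The authors' deposited table holds log2 values, 1 per probe set and array (45101 probe sets, 6 arrays), made with RMA in affy per the submitters' processing notes; versions are not given in the sources used here. Per the labels' protocols, RNA was isolated with Trizol and column purification and labelled with biotin. RMA equalises the array distributions and so hides any shift common to the bulk of genes. The platform annotation gave 34945 probe sets 1 symbol, 932 several and 9160 none, beside 64 controls. Each of 18193 genes took its brightest probe set. Genotypes were tested by lmFit and eBayes of limma 3.58.1 (R 4.3.3; 4 residual degrees of freedom) with Benjamini-Hochberg adjustment over all genes, or over all probe sets where stated. Intervals are 95% and moderated. With 3 arrays in each group, their number limits precision.

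Members and lists were chosen with earlier results of these data known. Named are the 10 members with every probe set, Akt1, up to 4 genes per related list by smallest p, and the 3 genes most like Fos and Egr1. Further genes were picked with their values in view, which the text says except for the uncalled Egr4, Fosl1, Jund and Max. Only the limma fit was tested on simulated data, and the other steps were not. Alternatives were other variance moderation, probe set choice, filtering, scaling, array weights, a replicate block, a threshold of 0.01 and leaving out single arrays.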

Additional observations from a re-analysis of the deposited data

How the results depend on the processing

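Egr2, Myc, Maff and Btg2 kept their direction and their call in every alternative that gave a value, the threshold of 0.01 included. Myc has no plain probe set, so 2 of the 10 genes were higher with plain probe sets only, and Fosb gave no value once dim genes were left out. Of 148 values of single genes under alternatives, 140 kept direction and call, 4 became called in the same direction and 4 changed sign, of which 1, Egr3 by the mean of its probe sets, also became called. Centring each array on its median gave 2 genes lower (Egr1 added, -0.45, adjusted p = 0.0414), and array weights added Junb (0.35, adjusted p = 0.0379). The sign changed for Egr3 with the mean of its probe sets (0.61) and without caAkt replicate 1 (0.026) or wild-type replicate 2 (0.024), its range without single arrays being -0.065 to 0.026, and for Jun with the mean of its probe sets (-0.027). Without single arrays 3 to 4 of the 10 genes were higher and 1 to 2 lower, and over all genes 3984 to 4827 were changed, 2369 to 2605 higher and 1615 to 2222 lower. Over all genes 2929 were higher and 2254 lower, against 2557 and 3191 with median centring and 2669 and 2708 with a repeated quantile normalization. At a threshold of 0.01, 3255 were changed and 1270 lower. With the replicate block, 5141 genes were changed, and 3 of the 10 were higher and 1 lower as before. Same-numbered arrays had correlations of deviations of 0.27, 0.03 and -0.12 over genes, so the numbers were not taken as pairs. Signal over background is not in the table, which limits what can be said of Fosb and of Egr2 and Il6 in wild-type hearts.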
